A study of Mus musculus with 18 samples.

Results

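Alternatively activated macrophage genes were described through 8 genes, Arg1, Chil3, Mrc1, Clec10a, Mgl2, Clec7a, Ccl17 and Ccl22, taken by symbol with earlier results of these data known. All 8 were on the array, with 13 probes among 25697, where 16593 genes carried a symbol. The array measured total lung RNA of male mice of the C57BL/6 background, aged 8 to 12 weeks, and RNA of cultured pulmonary microvascular endothelial cells, called PMVEC. Lungs came from wild-type mice (WT) or mice lacking interleukin-4 (IL-4 KO) after 4 days in room air (WT normoxia, KO normoxia) or in 10% oxygen (WT hypoxia, KO hypoxia), with 3 animals in each of 4 groups. PMVEC were wild type, isolated from female C57BL/6 mice aged 4 to 6 weeks, used at passages 3 to 5 and given vehicle or 50 ng/mL recombinant IL-4 (rIL-4) for 24 h, with 3 samples in each group. The study asked which transcripts of the hypoxic lung depend on IL-4. The labels do not describe the knockout allele, and they do not say whether the PMVEC samples came from separate isolations, so their p-values may measure technical spread only.

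Macrophages exposed to IL-4 or interleukin-13 take on a state called alternative activation, in which the transcription factor STAT6 raises a set of genes of tissue repair and type 2 immunity. Arginase 1 (Arg1) splits arginine into ornithine and urea, and it is also the last enzyme of the urea cycle, so liver makes much of it. Chil3 encodes the secreted chitinase-like protein Ym1, which is abundant in alveolar macrophages of the mouse. Mrc1 encodes the mannose receptor CD206, Clec10a and Mgl2 the galactose-binding lectins MGL1 and MGL2, and Clec7a the fungal glucan receptor dectin-1. Ccl17 and Ccl22 encode chemokines that act on the receptor CCR4 of type 2 helper T cells and regulatory T cells.

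STAT6 binds palindromes made of TTC and GAA with 4 free bases between them, and STAT proteins more widely bind the form with 3 free bases. The RefSeq promoter table (GRCm38.p6) held entries for 6 of the 8 genes and none for Arg1 and Clec10a. In the 250 bases before the start, the form with 4 free bases was found for Ccl17 and Clec7a and the form with 3 for Ccl17 and Chil3. Neither form was found for the other 3, Mrc1, Mgl2 and Ccl22. Both forms read the same on both strands and did not overlap each other here. Among 32851 promoters of the same length, 5.85% held the first form and 7.02% the second. The promoters of Ccl17 and Mrc1, whose transcripts were both lower in IL-4 KO lung in room air, and of Chil3, whose transcript passed in no comparison, are shown 5′ to 3′ with the matches in capitals.
Ccl17, chr8:94810203-94810452, plus strand: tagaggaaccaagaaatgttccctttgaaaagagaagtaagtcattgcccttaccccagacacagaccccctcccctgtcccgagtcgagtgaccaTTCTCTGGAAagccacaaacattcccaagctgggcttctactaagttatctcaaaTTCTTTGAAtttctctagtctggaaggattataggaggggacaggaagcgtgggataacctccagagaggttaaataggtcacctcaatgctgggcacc
Mrc1, chr2:14229164-14229413, plus strand: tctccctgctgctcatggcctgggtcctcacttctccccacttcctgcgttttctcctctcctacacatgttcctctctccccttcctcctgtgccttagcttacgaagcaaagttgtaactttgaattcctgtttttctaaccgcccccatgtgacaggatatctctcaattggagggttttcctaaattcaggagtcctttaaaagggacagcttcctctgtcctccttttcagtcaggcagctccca
Chil3, chr3:106167565-106167814, minus strand: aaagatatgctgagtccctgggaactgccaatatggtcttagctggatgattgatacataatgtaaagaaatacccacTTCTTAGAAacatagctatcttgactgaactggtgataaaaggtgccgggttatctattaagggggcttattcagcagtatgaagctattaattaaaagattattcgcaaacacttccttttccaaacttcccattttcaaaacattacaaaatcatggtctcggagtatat
In Ccl17 the match with 4 free bases began at −154 from the start and the match with 3 at −99, and in Chil3 the match began at −172. These matches are letters only and were not tested as binding sites.

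A probe counted as detected where its detection p-value was under 0.05, which held for 60.2% to 64.2% of probes per lung array and 45.1% to 46.9% per PMVEC array. No array pair held identical values. The Il4 probe gave normalized log2 values of 7.25 to 8.26 in the 6 wild-type lungs and 4.97 to 5.86 in the 6 IL-4 KO lungs, so the genotypes did not overlap. It still counted as detected in KO normoxia lungs 1 and 3 and KO hypoxia lungs 1 and 3, but not in lung 2 of either group. The sources used here do not say whether this probe lies within the deleted part of Il4. Transcripts of liver stood apart in KO normoxia. Their level, the mean over 23 genes of each gene's log2 deviation from its mean over the lungs, was 1.10 to 3.45 for KO normoxia, −0.53 to 0.25 for KO hypoxia, −1.30 to −0.45 for WT normoxia and −1.61 to −1.06 for WT hypoxia. Since the lungs were measured whole, fewer cells of a type and less RNA per cell cannot be told apart in any result that follows.

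The 8 genes did not move as a group. Under hypoxia in wild-type lung 1 of the 8 passed the test and in IL-4 KO lung 2 did. Between the genotypes 3 passed in room air and 0 under hypoxia. Passing means a Benjamini-Hochberg adjusted p under 0.05 from limma over all 12571 genes tested in lung. The median log2 difference of the 8 genes was 0.04 for hypoxia in wild type, 0.14 for hypoxia in IL-4 KO, −0.16 for the genotypes in room air and 0.04 for the genotypes under hypoxia. Over all genes these medians were −0.00065, 0.03, −0.02 and 0.01. Of all genes, 11.8% passed for hypoxia in wild type (7.48% higher and 4.32% lower), 8.78% for hypoxia in IL-4 KO (4.96% higher and 3.82% lower), 7.05% for the genotypes in room air (4.09% higher and 2.96% lower) and 0.0557% for the genotypes under hypoxia. For the genotypes under hypoxia 945 genes had an unadjusted p under 0.05, Arg1 and Clec10a among the 8.

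**Figure D1:**
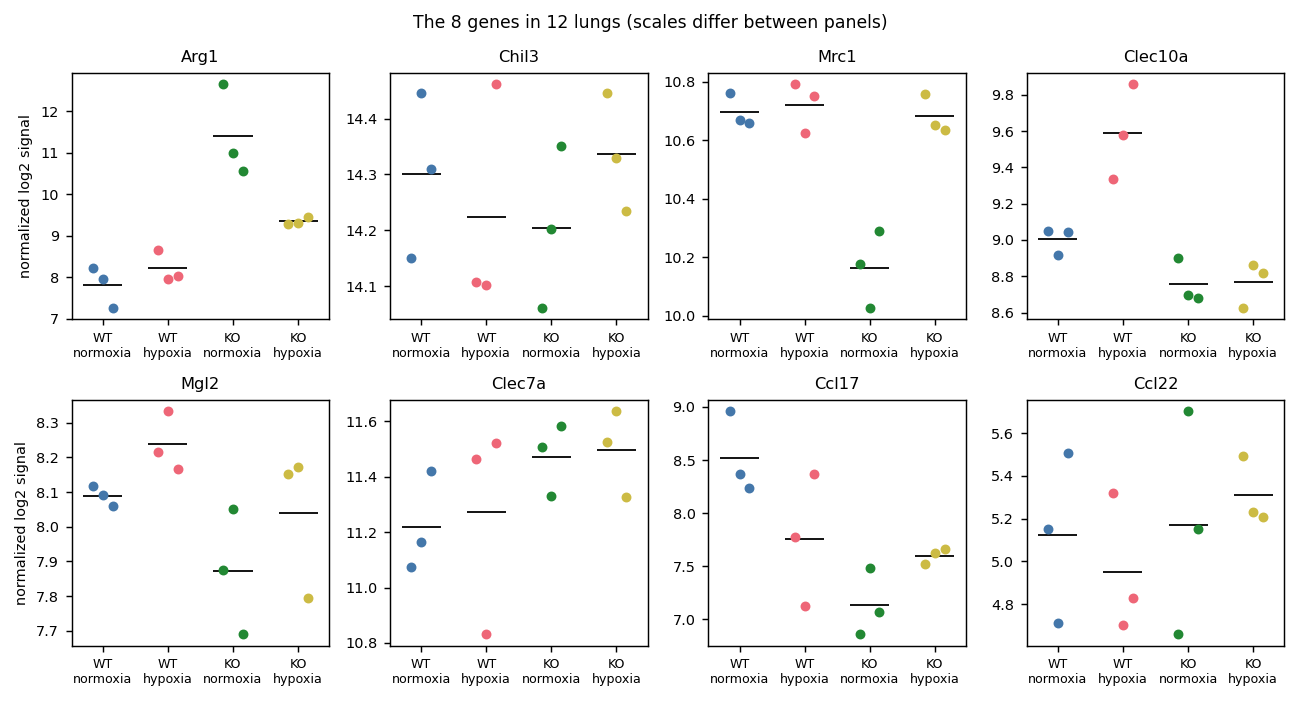
Normalized log2 signal (vertical axes, scaled separately) of the 8 genes in the 12 lungs by group; points are single lungs and bars are group means. Arg1 stands highest in KO normoxia, Mrc1 and Ccl17 stand lowest there, and Clec10a stands highest in WT hypoxia.

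Arg1 had the widest range of the 8. Its log2 signal was 8.24, 7.95 and 7.26 for WT normoxia, 8.67, 7.97 and 8.04 for WT hypoxia, 12.65, 10.99 and 10.57 for KO normoxia, and 9.28, 9.31 and 9.46 for KO hypoxia. KO normoxia lay above KO hypoxia and KO hypoxia above both wild-type groups with no overlap, while the wild-type groups overlapped each other. In room air the IL-4 KO lungs held 12.0-fold more Arg1 signal than wild type (log2 difference 3.59, SE 0.43, adjusted p = 0.0012). Under hypoxia Arg1 fell by 2.06 on the log2 scale in IL-4 KO lung (SE 0.43, adjusted p = 0.0102), whereas the difference in wild type was 0.41 (SE 0.43, adjusted p = 0.61). The test of the difference between these responses gave −2.46 (SE 0.61, adjusted p = 0.108), short of the threshold. The genotypes differed by 1.12 under hypoxia (SE 0.43, adjusted p = 0.53).

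Arg1 moved with the liver transcripts from lung to lung. As a deviation from its own mean over the 12 lungs, Arg1 was at 3.45, 1.80 and 1.37 for KO normoxia, where the liver level, which leaves Arg1 out, was 3.45, 1.74 and 1.10. In KO hypoxia Arg1 was at 0.08, 0.11 and 0.26 and the liver level at −0.53, 0.14 and 0.25. WT normoxia had Arg1 at −0.96, −1.25 and −1.94 and the liver level at −0.45, −0.59 and −1.30. The order of the 3 lungs was the same for both measures in these 3 groups. In WT hypoxia, where Arg1 was at −0.53, −1.23 and −1.16 and the liver level at −1.15, −1.61 and −1.06, the lung with the most Arg1 was not the one with the most liver signal. All 23 liver genes fell under hypoxia in IL-4 KO and 21 of 23 rose in IL-4 KO in room air, with 0 of 23 passing for hypoxia in wild type. Ambp, which encodes a plasma protein precursor made by hepatocytes, rose by 4.02 in IL-4 KO in room air (SE 0.47, adjusted p = 0.0012), beside 3.59 for Arg1. With the liver level as a covariate the room-air difference of Arg1 was 1.17 (adjusted p = 0.27), and that for hypoxia in IL-4 KO was −0.25 (adjusted p = 0.82). In the same model Arg1 rose by 0.82 under hypoxia in wild type (adjusted p = 0.0218). This difference passed under that setting only, 1 of 22 alternatives. Omission of KO normoxia lungs 1 and 2 left it at 0.41, as in the main model. Without the KO normoxia lungs 1 and 2 the room-air difference was 2.76 (adjusted p = 0.0118), resting on 1 lung whose liver level was 1.10, and the hypoxia difference in IL-4 KO was −1.22 (adjusted p = 0.13). The liver level does not overlap between KO normoxia and the other groups, so it and the group cannot be told apart.

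**Figure D2:**
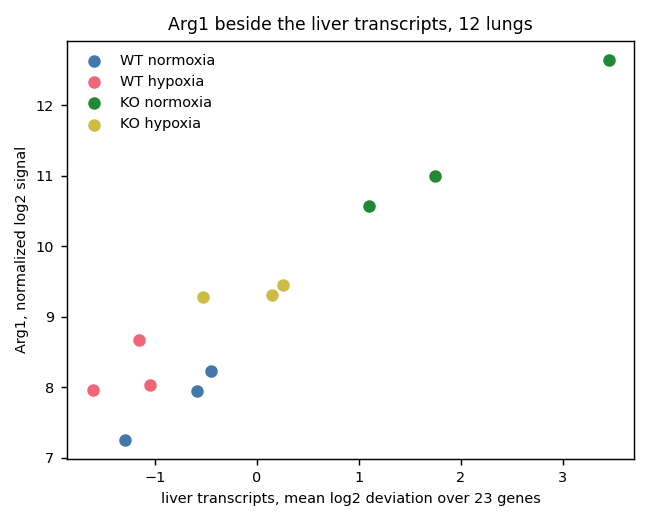
Normalized log2 signal of Arg1 (vertical axis) against the mean log2 deviation of 23 liver genes (horizontal axis), 1 point per lung and 1 colour per group. The 3 KO normoxia lungs are the highest on both axes, with Arg1 at 10.57 to 12.65.

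Among 11 measured genes of arginine and polyamine metabolism other than Arg1, 1 rose and 0 fell under hypoxia in wild type. In IL-4 KO 3 rose and 0 fell, and in room air 1 was higher and 1 lower in IL-4 KO. Of all genes 11.8%, 8.78% and 7.05% passed in these comparisons. Gatm, which takes arginine into creatine synthesis, rose by 1.38 in wild type (SE 0.14, adjusted p = 4.6e-05). The rises in IL-4 KO were those of the nitric oxide synthases Nos3, by 0.88 (SE 0.16, adjusted p = 0.0047), and Nos2, by 0.69 (SE 0.12, adjusted p = 0.0042), and of Aldh18a1, an enzyme of proline and ornithine synthesis, by 0.87 (SE 0.20, adjusted p = 0.0193). Ass1, the urea cycle enzyme that makes argininosuccinate, was higher by 1.27 in IL-4 KO in room air (SE 0.26, adjusted p = 0.0134), and with the liver level as a covariate its difference was −0.13. Nos3 was lower by 0.65 in the same comparison (log2 difference −0.65, SE 0.16, adjusted p = 0.0302). With the liver level as a covariate none of these calls in IL-4 KO held, with adjusted p-values of 0.30 for Nos3, 0.39 for Nos2 and 0.58 for Aldh18a1 under hypoxia and 0.62 for Nos3 in room air. Without KO normoxia lungs 1 and 2 they were 0.0532, 0.20, 0.30 and 0.20. None of the 11 passed the test of the difference between the genotypes' responses.

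Mrc1 was lower in KO normoxia than in any other group. The signal was 10.76, 10.67 and 10.66 for WT normoxia, 10.79, 10.62 and 10.75 for WT hypoxia, 10.18, 10.03 and 10.29 for KO normoxia, and 10.76, 10.65 and 10.64 for KO hypoxia. The 3 KO normoxia lungs lay below the other 9, which overlapped between their groups. Mrc1 differed by −0.53 between the genotypes in room air (SE 0.11, adjusted p = 0.0117) and rose by 0.52 under hypoxia in IL-4 KO (SE 0.11, adjusted p = 0.0096). These comparisons share the KO normoxia lungs. In wild type the hypoxia difference was 0.02 with a 95% interval of −0.21 to 0.26 (adjusted p = 0.92), and the genotypes under hypoxia differed by −0.04 (95% interval −0.27 to 0.19). The difference between the responses was 0.49 (SE 0.15, adjusted p = 0.18). With the liver level as a covariate the sizes were nearly the same, −0.51 and 0.50, but the adjusted p-values were 0.38 and 0.27. Without KO normoxia lungs 1 and 2 they were −0.41 (adjusted p = 0.30) and 0.39 (adjusted p = 0.26), and without lung 2 alone the room-air difference was −0.47 (adjusted p = 0.0535).

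Clec10a was the one member that passed for hypoxia in wild type. It read 9.05, 8.92 and 9.05 for WT normoxia, 9.34, 9.58 and 9.86 for WT hypoxia, 8.90, 8.70 and 8.68 for KO normoxia, and 8.62, 8.86 and 8.82 for KO hypoxia. WT hypoxia lay above all other lungs and WT normoxia above both IL-4 KO groups, which overlapped each other. Clec10a rose by 0.59 on the log2 scale under hypoxia in wild type (SE 0.14, adjusted p = 0.0170). In IL-4 KO the difference was 0.01, with a 95% interval of −0.29 to 0.31 (adjusted p = 0.98). The difference between the responses was −0.58 (SE 0.20, adjusted p = 0.22) and did not pass, so the responses are not shown to differ. Between the genotypes Clec10a differed by −0.24 in room air (SE 0.14, adjusted p = 0.33) and by −0.82 under hypoxia (SE 0.14, adjusted p = 0.0736). The hypoxia call in wild type was lost without WT normoxia lung 2 (0.54, adjusted p = 0.0672) or without WT hypoxia lung 3 (0.45, adjusted p = 0.0573).

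Mgl2, the close relative of Clec10a, passed in no comparison. Its signal was 8.12, 8.09 and 8.06 for WT normoxia, 8.22, 8.33 and 8.17 for WT hypoxia, 7.87, 8.05 and 7.69 for KO normoxia, and 8.15, 8.17 and 7.79 for KO hypoxia. The order of its group means was that of Clec10a, and WT hypoxia lay above WT normoxia and WT normoxia above KO normoxia with no overlap. The differences were small, 0.15 for hypoxia in wild type (SE 0.13, adjusted p = 0.52) and −0.22 for the genotypes in room air (SE 0.13, adjusted p = 0.36). Clec10a and Mgl2 are similar in sequence, and their probe sequences were not analysed here, so signal shared between the probes cannot be told apart.

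Clec7a was read by 4 probes, all detected on 12 of 12 lung arrays, and no probe passed in any comparison. The probe that stood for the gene read 11.07, 11.17 and 11.42 for WT normoxia, 11.46, 10.83 and 11.52 for WT hypoxia, 11.51, 11.33 and 11.58 for KO normoxia, and 11.52, 11.64 and 11.33 for KO hypoxia. The groups overlapped throughout, and its hypoxia difference was 0.05 in wild type (95% interval −0.34 to 0.44) and 0.02 in IL-4 KO (95% interval −0.36 to 0.41). The other 3 probes gave −0.34, −0.22 and −0.04 for hypoxia in wild type and −0.02, −0.06 and 0.44 in IL-4 KO, so the probes did not share a direction.

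The other C-type lectin receptors and the proteins that pass on the dectin-1 signal numbered 18 measured genes. Under hypoxia 1 rose and 3 fell in wild type, and 0 rose and 1 fell in IL-4 KO. In room air 1 was higher and 1 lower in IL-4 KO. Of all genes 11.8%, 8.78% and 7.05% passed in these comparisons. Clec4g, a receptor of liver and lymph node sinusoidal endothelium, fell by 0.97 under hypoxia in wild type (SE 0.18, adjusted p = 0.0035), fell by 1.31 in IL-4 KO (SE 0.18, adjusted p = 0.00048), and it was higher by 0.80 in IL-4 KO in room air (SE 0.18, adjusted p = 0.0172). With the liver level as a covariate the fall of Clec4g in IL-4 KO (adjusted p = 0.0934) and its room-air difference no longer passed. Its fall in wild type still passed. Clec4d, a receptor of neutrophils and monocytes, fell by 2.25 in wild type (SE 0.64, adjusted p = 0.0396). The Clec4d call held under 8 of 22 alternative settings. The level of 9 neutrophil genes was 1.88, 0.97 and −0.66 for WT normoxia and −0.28 to −0.19 for WT hypoxia, and its part in the Clec4d result was not tested. Cd209a, a lectin of monocyte-derived dendritic cells, was lower in IL-4 KO in room air (log2 difference −1.21, SE 0.25, adjusted p = 0.0125).

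Chil3 gave no call with any of its 3 probes. The probe standing for the gene read 14.15, 14.44 and 14.31 for WT normoxia, 14.11, 14.10 and 14.46 for WT hypoxia, 14.06, 14.20 and 14.35 for KO normoxia, and 14.44, 14.33 and 14.23 for KO hypoxia. All 4 groups overlapped. Its hypoxia difference was −0.08 in wild type (95% interval −0.37 to 0.22, adjusted p = 0.77) and 0.13 in IL-4 KO (95% interval −0.16 to 0.43, adjusted p = 0.65), and the genotypes in room air differed by −0.10 (95% interval −0.39 to 0.20). The second probe gave −0.11 for hypoxia in wild type, while the third, which read 12.92, 12.95 and 12.37 for WT normoxia and 12.01, 11.87 and 12.47 for WT hypoxia, gave −0.63 (SE 0.22, adjusted p = 0.0943 over the probes tested). Chil3 has near-identical relatives in the mouse genome, Chil4 among them, and signal shared between them cannot be told apart here. Of the 6 other chitinase family genes listed, 5 were on the array, 2 were measured in lung and 0 passed in the 5 lung comparisons.

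**Figure D3:**
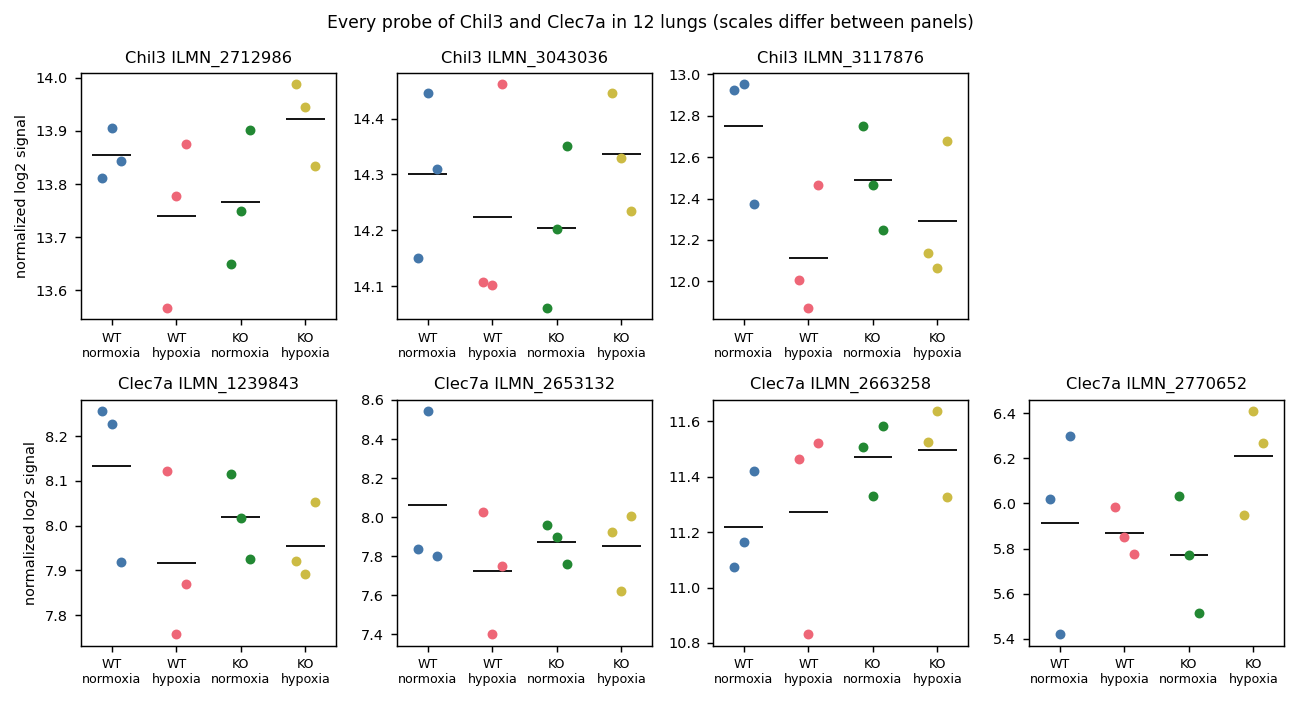
Normalized log2 signal (vertical axes, scaled separately) of the 3 probes of Chil3 and the 4 probes of Clec7a in the 12 lungs by group; points are single lungs and bars are group means. The groups overlap for the probe of Chil3 that read 14.06 to 14.46 and for the probe of Clec7a that read 10.83 to 11.64.

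Ccl17 was the chemokine that differed between the genotypes. It read 8.96, 8.37 and 8.23 for WT normoxia, 7.78, 7.13 and 8.36 for WT hypoxia, 6.86, 7.48 and 7.07 for KO normoxia, and 7.52, 7.63 and 7.66 for KO hypoxia. WT normoxia lay above both IL-4 KO groups, KO normoxia lay below KO hypoxia with no overlap, and WT hypoxia overlapped WT normoxia and both IL-4 KO groups. In room air Ccl17 was 2.61-fold lower in IL-4 KO than in wild type (log2 difference −1.39, SE 0.28, adjusted p = 0.0118). For hypoxia the difference was −0.76 in wild type (SE 0.28, adjusted p = 0.10) and 0.46 in IL-4 KO (SE 0.28, adjusted p = 0.38), and the difference between these responses was 1.23 (SE 0.39, adjusted p = 0.20). The genotypes differed by −0.16 under hypoxia (SE 0.28, adjusted p = 0.99). With the liver level as a covariate the room-air difference was −1.57 (adjusted p = 0.31), without KO normoxia lungs 1 and 2 it was −1.46 (adjusted p = 0.16), and without WT normoxia lung 1 it was −1.16 (adjusted p = 0.0509). Without WT hypoxia lung 3 the hypoxia difference in wild type was −1.07 and passed (adjusted p = 0.0240).

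Ccl22 was near background. It was detected on 3 of 12 lung arrays, 1 each in WT normoxia, KO normoxia and KO hypoxia, with log2 values of 4.71 to 5.51, 4.66 to 5.70 and 5.21 to 5.49, and on 0 arrays of WT hypoxia, where it read 4.70 to 5.32. No difference was detectable at this signal, with hypoxia differences of −0.17 in wild type (adjusted p = 0.74) and 0.14 in IL-4 KO (adjusted p = 0.83). Of 4 genes for the receptors and processing of these chemokines, 2 were measured in lung. Ackr2, a scavenging receptor that binds Ccl17 and Ccl22, rose by 0.71 under hypoxia in IL-4 KO (SE 0.17, adjusted p = 0.0234). In wild type 0 passed. The test of the difference between the responses gave 0.68 for Ackr2 (SE 0.25, adjusted p = 0.26). With the liver level as a covariate the Ackr2 call was lost, and it held under 16 of 22 alternative settings.

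**Figure D4:**
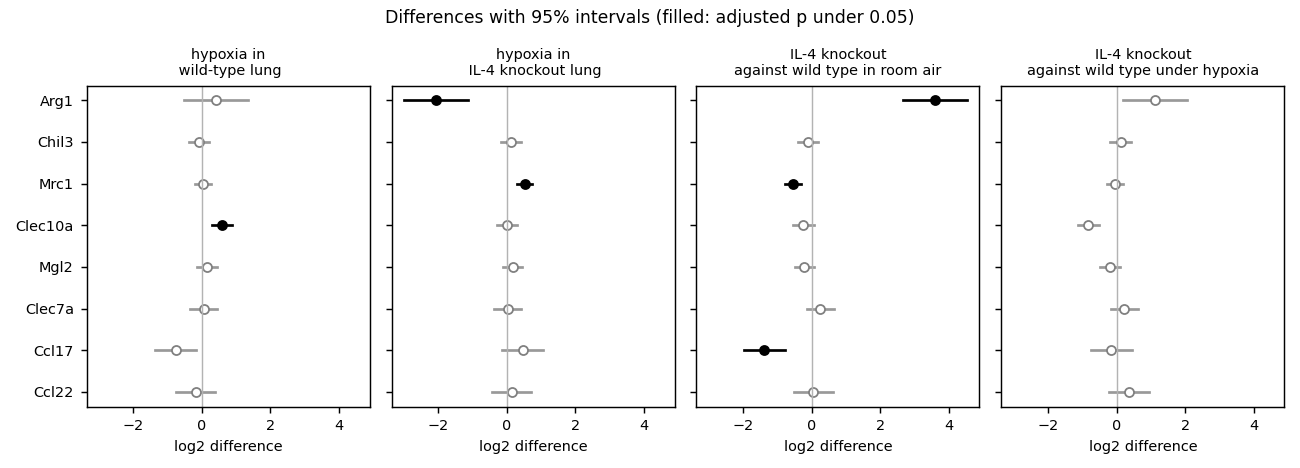
Log2 differences (horizontal axes) of the 8 genes (vertical axis) in 4 lung comparisons, with 95% confidence intervals from limma; filled points had an adjusted p under 0.05. Clec10a is filled for hypoxia in wild type, Arg1 and Mrc1 for hypoxia in IL-4 KO, and Arg1, Mrc1 and Ccl17 for the genotypes in room air.

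The groups did not overlap for 2 of the 8 genes for hypoxia in wild type, against 28.9% of all genes, and for 3 for hypoxia in IL-4 KO, against 27.2%. For the genotypes they did not overlap for 5 of 8 in room air, Arg1, Mrc1, Clec10a, Mgl2 and Ccl17, against 24.5%, and for 2 of 8 under hypoxia, Arg1 and Clec10a, against 13.7%. Of those 5 in room air, Arg1 was higher in IL-4 KO and the other 4 were lower. The test of the difference between the genotypes' responses to hypoxia was passed by 0 of the 8 genes and by 0.0159% of all genes. Unadjusted p-values under 0.05 were found there for 1564 genes, Arg1, Mrc1, Clec10a and Ccl17 among the 8.

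Other genes linked with alternative activation, a list held apart from the 8, were read in the same comparisons. Of 24 measured, 4 rose and 2 fell in wild type, and 3 rose and 1 fell in IL-4 KO. In room air 1 was higher and 2 lower in IL-4 KO. Of all genes 11.8%, 8.78% and 7.05% passed in these comparisons. Retnla, which encodes the resistin-like molecule RELMα, rose by 4.52 in wild type (SE 0.25, adjusted p = 2.3e-06) and by 3.50 in IL-4 KO (SE 0.25, adjusted p = 8.3e-06). The lipid-sensing receptor gene Trem2 rose by 1.71 in wild type (SE 0.16, adjusted p = 2.8e-05) and by 0.81 in IL-4 KO (SE 0.16, adjusted p = 0.0078). Igf1, a growth factor, rose by 1.27 (SE 0.27, adjusted p = 0.0094) and Mmp12, the macrophage elastase, by 0.81 (SE 0.22, adjusted p = 0.0335) in wild type. The IL-4 response factor Egr2 fell by 0.79 in wild type (adjusted p = 0.0166) and by 0.74 in IL-4 KO (adjusted p = 0.0279), and the chemokine Ccl24 fell by 0.50 in wild type (adjusted p = 0.0465). Tgm2, a transglutaminase induced by IL-4, rose by 0.55 in IL-4 KO (SE 0.14, adjusted p = 0.0322) and was lower by 0.71 in IL-4 KO in room air (log2 difference −0.71, adjusted p = 0.0124), the pattern of Mrc1. In room air Fcgr2b, an inhibitory antibody receptor, was lower in IL-4 KO (log2 difference −0.80, adjusted p = 0.0337) and Trem2 was higher (0.63, adjusted p = 0.0357). With the liver level as a covariate Trem2, Egr2 and Tgm2 no longer passed for hypoxia in IL-4 KO, while Retnla still did. Nor did Tgm2, Fcgr2b or Trem2 pass in room air in that model. The Tgm2 call for hypoxia in IL-4 KO held under 14 of 22 alternative settings. Tgm2, Egr2 and Igf1 were also detected on every PMVEC array, so they are not particular to macrophages here. None of the 24 passed the test of the difference between responses, in which Retnla gave −1.02 (adjusted p = 0.24) and Trem2 −0.91 (adjusted p = 0.11).

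Genes of classical activation, the state driven by interferon gamma and bacterial products, were 17. The shares of all genes passing were 11.8% for hypoxia in wild type, 8.78% in IL-4 KO and 7.05% in room air. In wild type 5 rose and 1 fell under hypoxia, among them the chemokines Cxcl9, by 2.10 (SE 0.44, adjusted p = 0.0090), and Cxcl10, by 1.72 (SE 0.35, adjusted p = 0.0079), and the cytokine Il6, by 2.05 (SE 0.24, adjusted p = 0.00015). Their WT normoxia means of 5.42, 5.03 and 5.13 were close to that of Ccl22, 5.12, so these sizes start near background. The formyl peptide receptor gene Fpr2 fell by 0.99 (SE 0.20, adjusted p = 0.0076). In IL-4 KO 1 rose, Nos2, from a similarly low KO normoxia mean of 5.36, and 0 fell. In room air 1 was higher in IL-4 KO, the lymphocyte and macrophage receptor gene Gpr18, by 1.39 (SE 0.21, adjusted p = 0.0028), and 1 was lower, Fpr2 (log2 difference −0.75, SE 0.20, adjusted p = 0.0449). The Fpr2 call in room air held under 7 of 22 alternative settings, and that for hypoxia in wild type under all 22. The part of the uneven neutrophil level of WT normoxia in the Fpr2 results was not tested. None of the 17 passed the test of the difference between responses.

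**Figure D5:**
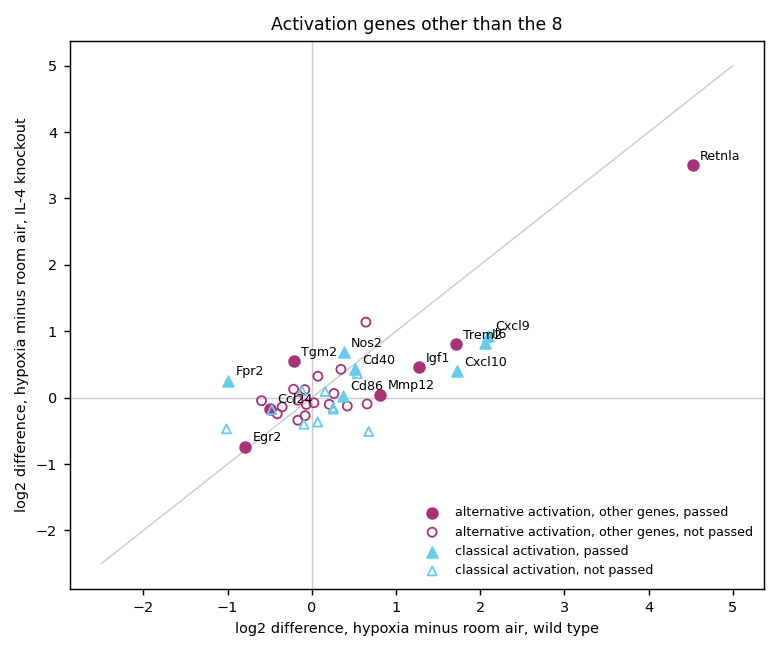
Log2 difference between hypoxia and room air in wild type (horizontal axis) and in IL-4 KO lung (vertical axis) for 24 other alternative activation genes and 17 classical activation genes; filled symbols passed in at least 1 of the 2 comparisons and the diagonal marks equal differences. Retnla lies farthest out on both axes, at 4.52 and 3.50.

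Markers of the cells that carry the 8 genes were read as well. Of all genes 11.8% passed for hypoxia in wild type, 8.78% for hypoxia in IL-4 KO and 7.05% for the genotypes in room air. Of 16 measured macrophage and monocyte genes 6 rose and 1 fell under hypoxia in wild type, 2 rose and 0 fell in IL-4 KO, and in room air 0 were higher and 1 lower in IL-4 KO. Their level was −0.25 to −0.05 for WT normoxia, 0.11 to 0.51 for WT hypoxia, −0.31 to −0.16 for KO normoxia and 0.01 to 0.12 for KO hypoxia. The complement gene C1qb of tissue macrophages rose by 1.19 in wild type (SE 0.15, adjusted p = 0.00034) and by 0.77 in IL-4 KO (SE 0.15, adjusted p = 0.0078). Of 10 measured dendritic cell genes, cells that also carry Clec10a, Mgl2 and Ccl17, 3 rose in wild type and 1 in IL-4 KO, and their level was −0.30 to 0.06 for WT normoxia, 0.08 to 0.27 for WT hypoxia, −0.13 to −0.05 for KO normoxia and 0.07 to 0.09 for KO hypoxia. Fscn1, the actin bundler of mature dendritic cells, rose by 1.08 in wild type (SE 0.12, adjusted p = 0.0001) and by 1.41 in IL-4 KO (SE 0.12, adjusted p = 2e-05). Fscn1 was the only gene of the 10 that rose in IL-4 KO, where their median log2 difference was −0.00055. It was also detected on every PMVEC array, so it is not particular to dendritic cells here. In room air 1 of the 10 was higher in IL-4 KO, the homing receptor gene Ccr7, by 1.41 (SE 0.15, adjusted p = 0.00087), and 1 was lower, Cd209a. Of 7 interstitial macrophage genes 1 rose and 1 fell under hypoxia in each genotype. Folr2, the folate receptor gene of resident macrophages, rose by 1.71 in wild type (adjusted p = 0.0005) and by 1.11 in IL-4 KO (adjusted p = 0.0105). Lyve1, a hyaluronan receptor gene shared with lymphatic endothelium, fell by 1.97 in wild type (adjusted p = 4.8e-06) and fell by 0.94 in IL-4 KO (adjusted p = 0.0010). Of 5 other lymphatic endothelium genes measured, 3 rose and 0 fell in wild type, and 2 rose and 0 fell in IL-4 KO. The cells behind the Lyve1 result were not tested. In room air 0 of the 7 were higher and 2 lower in IL-4 KO, Lyve1 (log2 difference −1.17, SE 0.14, adjusted p = 0.0012) and the scavenger receptor gene Cd163 (−1.05, SE 0.21, adjusted p = 0.0109), with adjusted p-values of 0.20 and 0.43 with the liver level as a covariate. Of 8 alveolar macrophage genes 0 rose and 1 fell in wild type, 0 passed in IL-4 KO, and in room air 0 were higher and 1 lower in IL-4 KO. Of the passing differences followed for genes other than the 8, the liver covariate left 29 of 34 for hypoxia in wild type, 4 of 22 for hypoxia in IL-4 KO and 0 of 19 for the genotypes in room air, and omission of KO normoxia lungs 1 and 2 left 30, 8 and 5. The 22 and the 19 included Ambp, Apoa1, Fga and Hpx, liver genes whose own signal is part of the liver level. Their loss with the covariate was therefore built into the model. The part of macrophages, monocytes and dendritic cells in the results for the 8 genes was not tested.

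The likeness of each gene's pattern to those of other genes was measured by Pearson's r of normalized log2 signal over the 12 lungs, which share groups, as a description. Arg1 was most like Itih3 (0.981), Serpinf2 (0.980) and Serpina10 (0.978). Mrc1 was most like Carhsp1 (0.945), Gspt1 (0.933) and Limk1 (0.927). Clec10a was most like Csrp2 (0.966), Lum (0.926) and Cpa3 (0.915). Ccl17 was most like Kctd12 (0.924), Hk2 (0.910) and Tubgcp4 (0.899). The nearest for the members that passed nowhere were Phox2a for Chil3 (0.953), Dek for Clec7a (0.890), Rspo1 for Ccl22 (0.830) and C1qtnf1 for Mgl2 (0.817). No member was among the 3 nearest genes of another.

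In PMVEC the 8 genes were nearly silent on the array. No probe of Arg1, Chil3, Mrc1, Clec10a, Ccl17 or Ccl22 was detected on any of 6 arrays. Of the 4 probes of Clec7a, 1 was detected on 1 of 6 arrays, with a detection p-value of 0.0451. Mgl2 was detected on 6 of 6 arrays and read 5.45, 5.56 and 5.14 with vehicle and 5.76, 5.30 and 5.68 with rIL-4. Its groups overlapped, and the difference was 0.20 (SE 0.15, 95% interval −0.13 to 0.52, adjusted p = 0.74). Its raw signal was 65.1 to 87.0, against array medians of 52.3 to 59.4. Over the 9017 genes tested in PMVEC 1.67% passed, 1.13% higher and 0.543% lower, and 0 of 1 member did.

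The label of these cells was not borne out by all its markers. Of 12 endothelial genes on the array, Eng, Egfl7 and Ramp2 were detected on all 6 PMVEC arrays. Ramp2 was dim there, with mean log2 values of 5.48 with vehicle and 5.33 with rIL-4, beside 5.38 and 5.58 for Mgl2. Another 7, Cdh5, Tek, Vwf, Emcn, Tie1, Icam2 and Esam, were detected on none, although all 12 were detected on every lung array. The leukocyte gene Ptprc was detected on 0 of 6 arrays, as were 11 of 18 macrophage and monocyte genes, Adgre1 and Tyrobp among them. The 4 of 18 detected on every array were Lyz2, Cd14, Aif1 and Lgals3. After rIL-4, 2 of 13 measured genes of the alternative activation list rose and 0 fell, Cish, a feedback inhibitor of STAT signalling, by 0.86 (SE 0.12, adjusted p = 0.0029) and the transcription factor gene Klf4 by 0.49 (SE 0.11, adjusted p = 0.0479). Klf4 no longer passed when any of the 6 arrays was left out.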

How the data were processed

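RNA of 12 lungs and of 6 PMVEC samples was labelled with biotin and read on Illumina mouse bead arrays, 1 per sample. The authors deposited non-normalized intensity values with a detection p-value for each, and a table of log2 values. The submitters' processing notes name BeadStudio, and the sources used here do not give the chip that held each array. In the authors' deposited table the log2 values matched the log2 of the signal, shifted to a common median, within 0.02 for 25697 of 25697 probes in lung. In PMVEC 18115 matched, and 7 of the 13 probes described here did, Mgl2 among them; the signal intensities were used.

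Signals were processed with limma 3.58.1 in R 4.3.3, separately for lung and PMVEC: neqc (background from detection p-values, offset 16, quantile normalization, log2), which compresses the differences of dim probes. Filtering for detection (p under 0.05 on 3 or more arrays) left 17112 probes for lung and 11947 for PMVEC. The probe of highest mean stood for a gene, giving 12571 and 9017 genes, and other probes were tested among all kept probes. Symbols came from the platform annotation: 23978 probes had 1 symbol, 0 several and 1719 none. Linear models (lmFit, eBayes) over 4 lung groups and 2 PMVEC groups gave two-sided p-values on 8 and 4 residual degrees of freedom, adjusted after Benjamini and Hochberg across all genes tested, with 0.05 as the threshold. The small number of arrays limits the precision.

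The members and all gene lists were chosen with earlier results of these data known. Named in the text are all members, up to 4 passing genes per list and comparison by size of change, and the 3 genes most like each member; Ccl24 was named after its value was seen, to complete a count. The fit was also run on simulated data with planted changes and noise independent between genes. Those data held no signal shared between genes, such as the liver level, and no changes as small as those of Mrc1 or Clec10a. Alternatives were the deposited log2 values, offset 50, median scaling, no filter or one at 0.01, the mean of a gene's probes, eBayes with trend and robust, the liver level as a covariate, omission of KO normoxia 1 and 2, only the groups compared, and omission of each array.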

Additional observations from a re-analysis of the deposited data

How the results depend on the processing

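No paired analysis was possible because the replicate numbers in the labels run on from group to group, so that the groups compared share none. Of 880 values of the members under the alternatives, 858 kept their side of the threshold, 15 lost the call and 7 gained one. None turned the sign of a call, though 35 values that did not pass turned sign. With the liver level as a covariate the members passing numbered 2 for hypoxia in wild type, 0 for hypoxia in IL-4 KO and 0 for the genotypes in room air, against 1, 2 and 3, and the genes passing numbered 183 for hypoxia in IL-4 KO and 2 in room air, against 1104 and 886. That model put Hpx at 0.22 for hypoxia in IL-4 KO and at −0.30 in room air, and Ass1 at −0.13 in room air, turning their signs. Hpx itself belongs to the liver genes behind that covariate. Without KO normoxia 1 and 2 the members passing were 0 and 1 and the genes 316 and 76 in those comparisons. With only the groups compared, 0 members passed for hypoxia in wild type, and 415 genes passed in room air, with Mrc1 at an adjusted p of 0.0683. Genes passing for the difference between responses, 2, were 32 with the deposited log2 values, 74 with offset 50, 27 with median scaling, 140 with trend and robust and 0 with no filter, with the covariate or without KO normoxia 1 and 2, and no member passed under any of them. For the genotypes under hypoxia, 7 became 20, 17, 14 and 21 under the first 4 of these, 2 with the covariate, 20 without KO normoxia 1 and 2 and 27 with only the groups compared. There Clec10a, 1 member, passed with the deposited log2 values (adjusted p = 0.0339), offset 50 (0.0330) and trend and robust (0.0175), and without WT hypoxia 1 (0.0458) or KO normoxia 1 (0.0442). Genes passing in PMVEC were 298 with the deposited log2 values, of which 276 were higher, and 75 with no filter, against 151 with 102 higher; median scaling gave 165 with 142 higher, and the median of all genes there moved from −0.01 to 0.09 with median scaling and to 0.10 with the deposited values. For hypoxia in wild type 940 of 1483 were higher, and 956 of 1294 with the deposited values. On leaving out each array in turn, the genes passing ranged from 891 to 1807 for hypoxia in wild type, 645 to 1188 for hypoxia in IL-4 KO, 0 to 200 for the difference between responses, 407 to 1236 in room air, 3 to 38 under hypoxia and 73 to 136 in PMVEC. Members passing ranged from 0 to 1 for hypoxia in wild type, 2 to 3 in room air and 0 to 1 under hypoxia. The ends 200, 1807 and 1236 came without WT normoxia 3, 38 came without KO normoxia 1, and the cause was not tested. Of 78 passing differences followed for genes other than the 8, 49 held on leaving out each array and 29 were lost with at least 1. Those lost included Nos3, Cd209a, Clec4g, Fcgr2b, Fpr2, Trem2, Tgm2 and Emcn between the genotypes in room air, Clec4d, Mmp12, Ramp2 and Tek for hypoxia in wild type, and Ackr2, Aldh18a1, Egr2, Tgm2 and Eng for hypoxia in IL-4 KO.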
